A study of Mus musculus with 49 samples.

Results

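Matrix metalloproteinases and their tissue inhibitors were followed through a serum-transferred arthritis in mouse ankle tissue, synovial fluid cells and blood leukocytes. The 10 genes examined were the proteases Mmp2, Mmp3, Mmp8, Mmp9, Mmp12, Mmp13 and Mmp14 and the inhibitors Timp1, Timp2 and Timp3, of 8251 genes on the arrays that carry 1 symbol. They were chosen by name, all 10 were present, and they were measured by 16 probe sets. The brightest probe set, averaged over all 49 arrays, stood for its gene in the tests, and the others are described beside it.

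All mice were male B6 animals aged 6 weeks that received serum of K/BxN mice, whose autoantibodies cause joint inflammation in the recipient. Whole ankle was profiled on day 0 (4 arrays), day 1 (2), day 3 (3), day 7 (4), day 12 (3) and day 18 (3) after the first injection. Fluid cells were taken from the same kind of joint on day 3 (3), day 7 (4), day 12 (3) and day 18 (3), with no sample on day 0. Blood leukocytes were taken on days 0, 1, 3, 7 and 12 (3 each) and day 18 (2). No genetic change is given for any group. The labels describe several ways of collecting the cells and extracting the RNA, so that in comparisons between tissues the tissue and the preparation cannot be told apart. They speak of biological replicates for blood only, and elsewhere the p-values rest on a spread between samples that may be only technical.

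Array medians lay between an intensity of 57.7 and 64.1, and replicates correlated at r of 0.941 to 0.995. Signal was judged against the 34 negative control probe sets, whose 95th percentile was 6.85 on the log2 scale. This value is called the background level here, and 4003 of the 8251 genes (48.5%) had no group mean above it. The signal of a liver transcript stood apart in replicate 1 of ankle days 0, 1, 7 and 12, where albumin (Alb) reached log2 8.95, 6.39, 8.41 and 10.65, while none of the 15 remaining ankle arrays passed 5.19. RNA length was read from the log2 ratio of the beta-actin control probe set at the 3' end over that at the 5' end. A higher ratio goes with shorter RNA. The ratio ran from 3.15 to 4.25 in the later ankle arrays and from 2.73 to 3.50 at ankle day 0. The median sum of 7 skeletal muscle markers varied among the ankle groups, between 4753 and 15376. In whole tissue, fewer cells of a type and less RNA per cell cannot be told apart.

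Matrix metalloproteinases are zinc enzymes that cut collagen, proteoglycan and other parts of the matrix around cells. They are made as inactive precursors, which other proteases activate, and the TIMP proteins block the active enzymes by binding their catalytic site. In arthritic joints they are known for the breakdown of cartilage and bone matrix, with sources in the lining fibroblasts, chondrocytes, macrophages, osteoclasts and neutrophils. Several of the genes are neighbours on mouse chromosome 9, in the order Mmp13, Mmp12, Mmp3 and Mmp8 among those examined, and many MMP promoters are known to bind AP-1, a Fos and Jun dimer, and ETS factors.

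The promoters of Mmp3 and Mmp13 are shown because these genes had the largest changes in ankle by day 18, with that of Timp1, the inhibitor that changed with them. Each sequence is the 250 bases before the annotated gene start, from RefSeq (GRCm38.p6), read 5' to 3' on the gene's strand, which is the plus strand in all 3. Capitals mark matches to the AP-1 motif TGANTCA, the ETS motif AGGAAG and the TATA box TATAAA, searched on both strands.
Mmp3, chr9:7445572-7445821: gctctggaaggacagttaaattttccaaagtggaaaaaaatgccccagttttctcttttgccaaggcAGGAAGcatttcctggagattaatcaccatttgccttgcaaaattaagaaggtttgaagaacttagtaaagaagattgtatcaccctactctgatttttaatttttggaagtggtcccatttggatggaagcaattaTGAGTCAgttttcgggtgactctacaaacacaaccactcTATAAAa
Mmp13, chr9:7272264-7272513: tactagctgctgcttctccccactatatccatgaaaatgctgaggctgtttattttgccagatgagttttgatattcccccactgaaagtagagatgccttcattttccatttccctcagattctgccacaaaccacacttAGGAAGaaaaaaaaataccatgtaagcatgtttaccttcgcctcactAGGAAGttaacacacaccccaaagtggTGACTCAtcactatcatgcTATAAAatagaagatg
Timp1, chrX:20869916-20870165: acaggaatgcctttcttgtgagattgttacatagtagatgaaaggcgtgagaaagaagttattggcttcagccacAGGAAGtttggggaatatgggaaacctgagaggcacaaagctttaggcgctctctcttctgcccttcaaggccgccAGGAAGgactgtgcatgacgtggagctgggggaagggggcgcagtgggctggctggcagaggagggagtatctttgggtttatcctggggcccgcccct
The AP-1 motif begins 46 bases before the start in Mmp3 and 35 bases before it in Mmp13, and neither it nor the TATA box was matched in this window of Timp1. Both the Mmp3 and the Mmp13 window hold ETS matches, 1 and 2 of them, and Timp1 holds 2. Of all 32851 promoter windows of this length in the table, 6.75% hold the AP-1 motif, 29.5% the ETS motif and 12.4% the TATA box. Promoters were found for 8 of the 10 genes (9 windows, since Mmp12 has 2), and not for Mmp2 and Mmp9. The AP-1 motif was found in 3 of the 9 windows, those of Mmp3 and Mmp13 and 1 of Mmp12, the ETS motif in 7 and the TATA box in 2. The NF-kappaB motif, 3 G and 2 C around 5 free bases, was found in 3 of the 9, those of Timp1, Timp3 and 1 of Mmp12, and in 45.8% of all windows, and no match of one motif overlapped a match of another. A match is a description of the letters and shows no binding.

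The ankle comparisons ask when each gene changed in the joint. By limma with Benjamini-Hochberg adjustment over all 8251 genes, the count past the 0.05 threshold against day 0 was 0 of the 10 on day 1, 2 on day 3, 6 on day 7, 4 on day 12 and 4 at day 18, all higher. The share of all genes past the threshold was 0% on day 1, 0.230% on day 3, 6.73% on day 7, 3.24% on day 12 and 2.01% at day 18. Counting the higher genes alone, it was 0.182%, 3.09%, 1.87% and 1.13% from day 3 to day 18. The median log2 difference of the 10 genes was 0.13, 0.07, 0.56, 0.49 and 0.57 at these days, against medians within -0.03 and 0.00 over all genes. Between day 1 and day 3, 0 of the 10 genes and 0.0121% of all genes passed, with an unadjusted p under 0.05 for 2 of the 10. On day 1 limma gave an unadjusted p under 0.05 for 1 of the 10 and for 150 of all genes, and no alternative setting put any of the 10 past the threshold there.

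**Figure D1:**
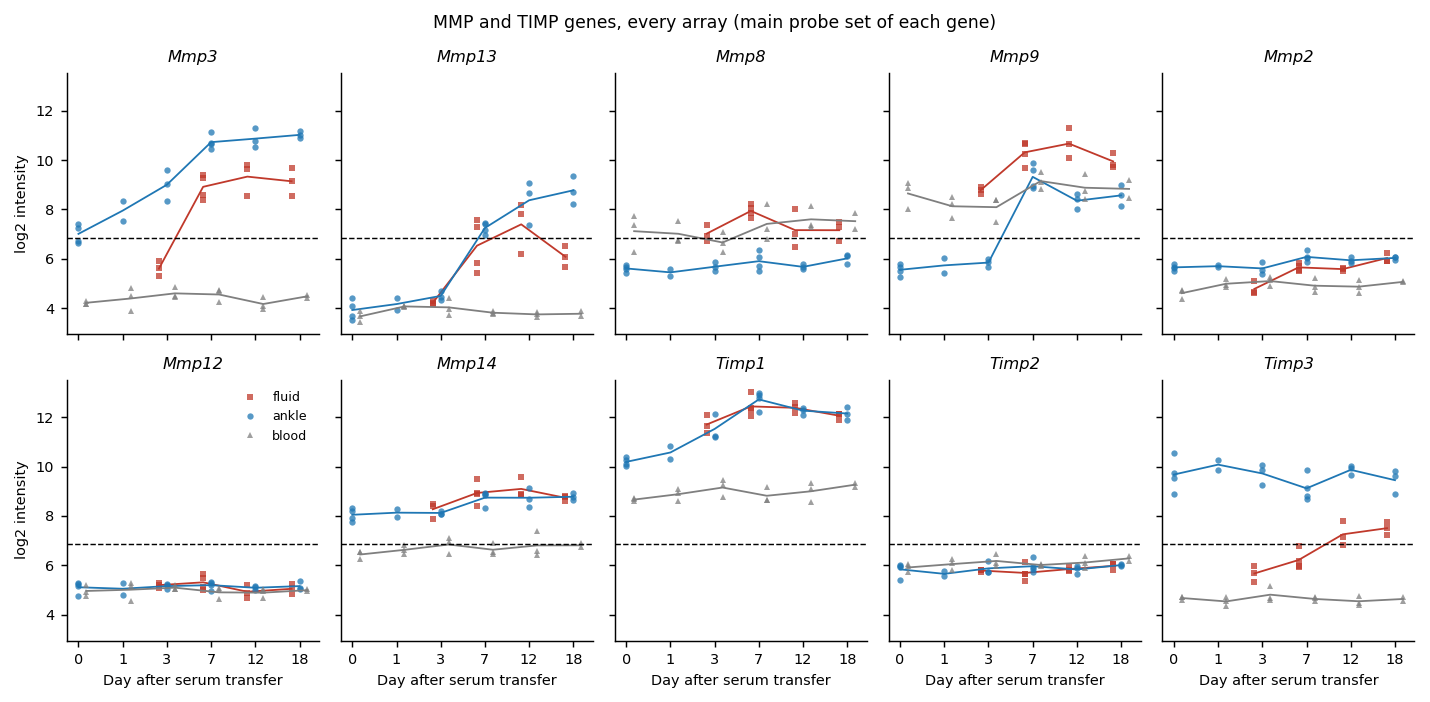
Log2 intensity of the main probe set of each gene (vertical axis) by day after serum transfer (horizontal axis, days evenly spaced), with 1 point per array, lines through the group means and the background level of 6.85 dashed. Fluid cells are red squares, ankle blue circles and blood grey triangles; Mmp2, Mmp12 and Timp2 lie under the dashed line in every array, and Mmp3 in ankle passes from about the line on day 0 to between 10.87 and 11.17 on day 18.

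Mmp3, stromelysin 1, which cuts proteoglycan and activates other MMP precursors, was the first protease seen to rise in ankle. Up to day 3 Mmp2, Mmp8, Mmp9, Mmp12 and Mmp13 lay under background in ankle, where an early rise could not be seen. Mmp3 was among the highest risers throughout. Its log2 intensity was 6.65, 7.399, 7.26 and 6.72 in the day 0 arrays, 8.35 and 7.54 on day 1, 9.61, 8.35 and 9.03 on day 3, and 11.13, 10.45, 10.69 and 10.63 on day 7. It was 11.30, 10.77 and 10.53 on day 12 and 11.01, 10.87 and 11.17 on day 18. Every array from day 1 on lay above every day 0 array, and the arrays of days 7, 12 and 18 overlapped.
Mmp3 was 3.98-fold higher on day 3 than on day 0 (adjusted p = 0.00262) and 16.1-fold higher on day 18 (adjusted p = 1.43e-07). On day 1 the difference was 0.94 ± 0.33 (SE) and did not pass (adjusted p = 0.999, 2 arrays against 4). It rose again by 1.73 ± 0.29 between day 3 and day 7 (adjusted p = 0.00644), where 4 of the 10 genes and 0.509% of all genes passed (0.351% as higher). Without day 3 replicate 2 this second rise was 1.40 and did not pass (adjusted p = 0.0720, range 0.00217 to 0.0720 over the fits that left out 1 array).

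Mmp13, the interstitial collagenase of the mouse that cuts type II collagen, was seen to rise later than Mmp3. Its arrays read 3.66, 4.41, 3.51 and 4.09 on day 0 and 4.32, 4.70 and 4.45 on day 3, all at the level of the negative controls. It read 6.98, 7.41, 7.17 and 7.43 on day 7, 8.68, 7.36 and 9.07 on day 12, and 8.72, 8.23 and 9.37 on day 18. The day 7 arrays stood just above background, apart from all earlier arrays, and every day 18 array lay above every day 7 array.
Against day 0, Mmp13 was higher by 3.33 ± 0.30 on day 7 (adjusted p = 1.84e-06), 4.45 ± 0.33 on day 12 (adjusted p = 2.67e-07) and 4.85 ± 0.33 on day 18 (adjusted p = 8.89e-08). Because day 0 lay under background, the linear rise is bounded from below by the background level, at least 1.32-fold on day 7 and at least 3.79-fold on day 18. The further difference of day 18 from day 7, 1.53 ± 0.33, did not pass (adjusted p = 0.198), and neither did any of the other 9 genes in that comparison, where 0.0606% of all genes passed. With values floored at background the day 7 rise was 0.40 and did not pass (adjusted p = 0.503). Mmp13 was not tested with the dimmest genes left out. Under the other alternatives and with each array left out its day 7 rise passed.

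Mmp8, the collagenase stored in neutrophil granules, passed the test on no day in ankle. Its ankle arrays read between 5.31 and 6.33, all under background, and its largest difference from day 0 was 0.41 ± 0.17 on day 18 (adjusted p = 0.331).

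Mmp9, gelatinase B, which is made by neutrophils, macrophages and osteoclasts and cuts denatured and basement membrane collagen, rose as a step. Its ankle arrays read 5.65, 5.26, 5.78 and 5.50 on day 0, 6.03 and 5.43 on day 1, 6.00, 5.65 and 5.88 on day 3, and 9.88, 9.58, 8.95 and 8.86 on day 7. They read 8.61, 8.03 and 8.41 on day 12 and 8.60, 8.13 and 8.97 on day 18. The lowest array from day 7 on, at 8.03, lay above the highest up to day 3, at 6.03, and all day 12 arrays lay under all day 7 arrays.
Between day 3 and day 7 Mmp9 rose by 3.48 ± 0.25 (adjusted p = 4.77e-07), and day 7 was at least 5.54-fold above a day 3 mean that lay under background. The difference of day 12 from day 7, -0.97 ± 0.25, did not pass (adjusted p = 0.979), and 0 of the 10 genes and 0% of all genes passed there, with an unadjusted p under 0.05 for 3 of the 10. The second probe set of Mmp9 gave smaller differences in the same direction, 2.06 ± 0.21 on day 7, 1.15 ± 0.23 on day 12 and 1.01 ± 0.23 on day 18 against day 0. Its arrays stood between 3.80 and 6.71 in ankle, under background.

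Some markers of neutrophils moved with Mmp9 in ankle. The summed intensity of the 7 measured of 8 neutrophil markers had a median of 801 on day 0, 850 on day 1, 1133 on day 3, 2533 on day 7, 2225 on day 12 and 3387 at day 18. On day 7, S100a8 (2.94 ± 0.25) and S100a9 (3.18 ± 0.28), calcium-binding proteins of neutrophils and other myeloid cells, passed as higher, while the granule protein genes Ltf, Ngp and Camp differed from day 0 by -0.25, -0.16 and 0.02 and did not pass. All 5 passed on day 18, when the sum was highest, whereas Mmp9 was highest on day 7. The macrophage sum had a median of 1491 on day 7 against 1616 on day 0, and of its 6 measured markers 1, the scavenger receptor gene Msr1, passed as higher on days 3, 7, 12 and 18 (1.29 ± 0.17 on day 7, adjusted p = 1.02e-04). The sum of the 4 measured of 6 osteoclast markers was 1975 on day 0, 1992 on day 7 and 3156 on day 18. The part of these cells in the rise of Mmp9 was not tested.

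Mmp14, the membrane type protease that activates the Mmp2 precursor, was well above background in every ankle array and rose slightly. Its arrays read 8.93, 8.88, 8.30 and 8.84 on day 7 against 7.77, 8.19, 8.30 and 7.92 on day 0. Replicate 3 of day 7 stood apart from the other 3 of its group, beside the highest day 0 array. The rise of 0.70 ± 0.18 on day 7, 1.62-fold, passed (adjusted p = 0.0247), and that of 0.73 ± 0.19 on day 18 did not (adjusted p = 0.0635). The day 7 call was lost when the arrays holding liver transcripts were left out (0.54, adjusted p = 0.0882) and when any of day 0 replicates 1 and 4 and day 7 replicates 1, 2 and 4 was left out (adjusted p = 0.0604 to 0.0774, range 0.00911 to 0.0774 over these fits).

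Mmp2, gelatinase A, Mmp12, the macrophage elastase, and Timp2, which takes part in the activation of Mmp2 at the cell surface, were measured at background. None of their 7 probe sets exceeded it in any of the 49 arrays. The highest reading was 6.35 for Mmp2, 5.64 for Mmp12 and 6.44 for Timp2. Within this range Mmp2 was called higher at ankle day 7 by 0.43 ± 0.12 (adjusted p = 0.0471), and leaving out 7 of the 8 arrays in turn ended that call (adjusted p = 0.0375 to 0.125). Its second probe set gave no such call. Mmp12 and Timp2 passed in no comparison by their main probe sets, and a low signal cannot show whether they changed.

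Timp1, the secreted inhibitor that inflammatory cytokines are known to induce, was above background in all 49 arrays and rose with Mmp3. Its ankle arrays read 10.25, 10.10, 10.01 and 10.40 on day 0, 10.82 and 10.32 on day 1, 12.15, 11.24 and 11.19 on day 3, and 13.00, 12.77, 12.21 and 12.90 on day 7. They read 12.39, 12.11 and 12.31 on day 12 and 12.12, 11.90 and 12.43 on day 18. All arrays from day 3 on lay above all day 0 arrays, and the day 7 arrays were the highest on average.
Timp1 was 2.52-fold higher on day 3 (adjusted p = 0.0205), 5.79-fold on day 7 (adjusted p = 1.52e-06) and 3.89-fold on day 18 (adjusted p = 1.05e-04) than on day 0. The call on day 3 ended when replicate 1 of day 3 was left out (1.02, adjusted p = 0.136), without day 0 replicate 3 (adjusted p = 0.0957), with the beta-actin ratio added to the model (adjusted p = 0.141) and with the mean of both Timp1 probe sets (0.76, adjusted p = 0.0556), in a range of 0.00109 to 0.141. The second probe set of Timp1 read at most 4.17 in any array, under background. Day 7 was 2.29-fold above day 3, which passed (adjusted p = 0.0303) and was lost in 5 of the 7 fits that left out 1 array: without day 3 replicates 2 and 3 and day 7 replicates 1, 2 and 4 (adjusted p = 0.0823 to 0.308).

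Timp3, the inhibitor that binds the matrix and also blocks ADAM proteases, passed the test on no day in ankle. Its arrays read 8.87, 10.55, 9.75 and 9.53 on day 0, 8.81, 9.12, 9.84 and 8.70 on day 7 and 9.63, 9.83 and 8.88 on day 18. The groups overlapped on every day, and its differences from day 0 ran from -0.56 ± 0.32 on day 7 to 0.40 ± 0.39 on day 1 (adjusted p = 0.386 to 0.999). The 95% interval of the day 7 difference, -1.23 to 0.11, leaves out a rise of the size seen for Timp1.

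**Figure D2:**
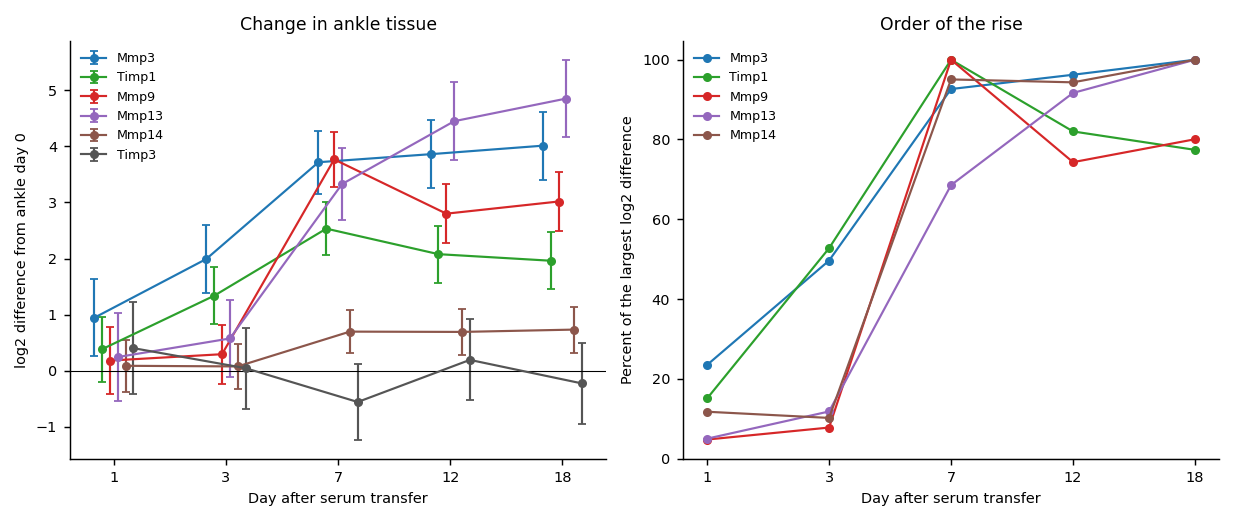
Left, mean log2 difference from ankle day 0 by day after serum transfer, with 95% confidence intervals from limma, for 4 proteases and Timp1 and Timp3; right, the same differences without Timp3 as a percentage of each gene's largest. Mmp3 and Timp1 stand at 49.6% and 52.7% by day 3, when Mmp9, Mmp13 and Mmp14 stand between 7.77% and 11.8%, with Mmp9 and Mmp13 under background up to that day.

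The order of the rise was read from these means. On day 1 Mmp3 had reached 23.5% and Timp1 15.1% of its largest log2 difference, and on day 3 49.6% and 52.7%. Mmp9 stood at 7.77% on day 3 and had its maximum on day 7, as did Timp1. Mmp13 stood at 11.8% on day 3, 68.6% on day 7 and 91.7% on day 12, with its maximum on day 18. Mmp3 was at 92.7% by day 7. After day 7, Timp1 stood at 82.0% and 77.4% and Mmp9 at 74.3% and 80.1% of their maxima on days 12 and 18. The day 0 and day 3 arrays of Mmp9 and Mmp13 lay under background, so their percentages describe signal, of which the part above background appeared by day 7. No change after day 7 passed the test for any of the 10 genes, although the Mmp13 arrays of day 18 lay above, and the Mmp9 arrays of day 12 under, all of those of day 7. With array weights in the fit, Mmp9 passed as lower on day 18 than on day 7 (-0.92, adjusted p = 0.0406).

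Proteases and inhibitors were set side by side as changes from day 0, since the levels of different probe sets cannot be compared. The change of Mmp3 minus that of Timp1 was 0.66 on day 3, 1.19 on day 7, 1.78 on day 12 and 2.05 at day 18, and within each array of days 7 to 18 the Mmp3 to Timp1 ratio lay above all 4 day 0 arrays. For Mmp14 it was negative on every day, -1.84 on day 7. Since 2 of the 4 Mmp3 arrays of day 0 lay under background, its change is less certain than that of Mmp14.
Mmp13 and Mmp9 lay under background in all day 0 arrays, so their changes were bounded from below by a baseline raised to that level. Minus the change of Timp1, the bound was -2.14, -0.56 and -0.04 for Mmp13 and -0.06, -0.58 and -0.24 for Mmp9 on days 7, 12 and 18, all under 0, so whether they rose more or less than Timp1 was not settled. Mmp8, under background in every ankle array, was not set against an inhibitor. Against Timp3 the change of Mmp3 was 4.28 larger on day 7, without overlap between the day 7 and day 0 arrays, and those of Mmp9 and Mmp13 were at least 3.03 and 0.96 larger. These differences of transcript changes carry no test and do not measure enzyme activity.

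**Figure D3:**
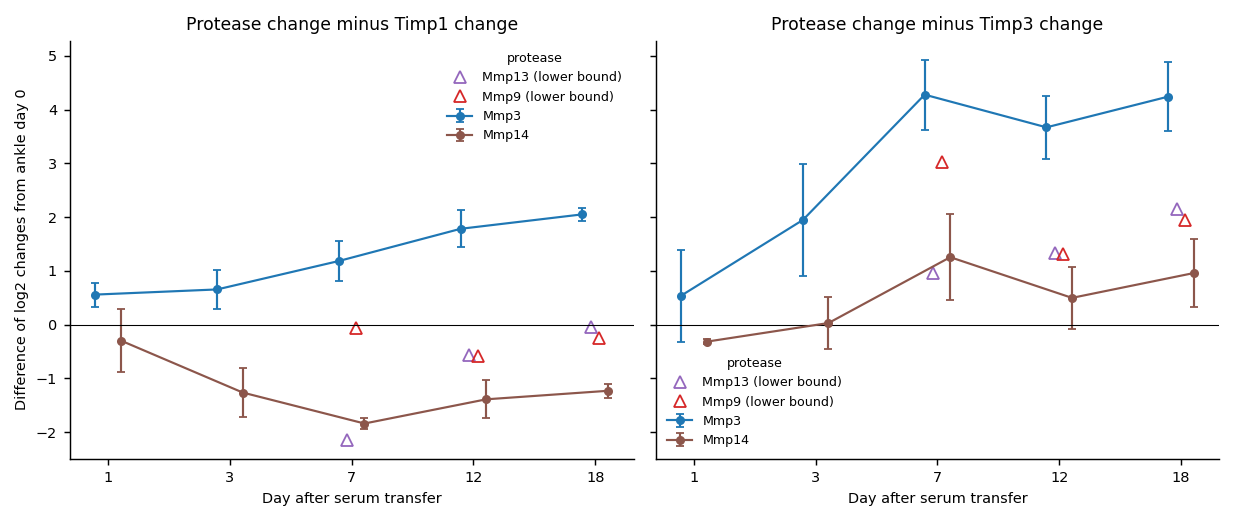
Change from ankle day 0 of each protease minus that of Timp1 (left) and of Timp3 (right), in log2 units, by day after serum transfer; points are group means, bars the SD of the difference between the arrays of that day, and open triangles lower bounds for Mmp9 and Mmp13, whose day 0 arrays lay under background. Against Timp1, Mmp3 climbs to 2.05 on day 18 and Mmp14 stays under 0 from day 1 on.

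Fluid cells were compared with whole ankle at the same day to ask which compartment held the transcripts. Of the 10 genes, 2 were higher and 3 lower in fluid on day 3, 2 and 3 on day 7, 2 and 2 on day 12, and 2 and 3 on day 18. The higher pair was Mmp8 and Mmp9 on each day, and Mmp3 and Timp3 were lower on each day. The third lower gene was Mmp2 on days 3 and 7, under background in both tissues, and Mmp13 on day 18. With the mean of both probe sets the Mmp2 calls were lost (adjusted p = 0.191 and 0.349). The day 7 call of Mmp2 was also lost with the beta-actin ratio added to the model (adjusted p = 0.204). Of all genes, 22.7% differed on day 3 (12.4% higher, 10.3% lower), 16.9% on day 7 (9.78% and 7.14%), 13.4% on day 12 (7.44% and 6.00%) and 10.7% on day 18 (5.33% and 5.34%).

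Mmp9 was above background in fluid on day 3, when its ankle arrays lay under it and an early rise there could not be seen. On day 3 it read 8.92, 8.63 and 8.77 in fluid, against 6.00, 5.65 and 5.88 in ankle and 8.39, 7.49 and 8.38 in blood. The fluid arrays lay above all ankle and all blood arrays of that day. Fluid exceeded ankle on day 3 by 2.93 ± 0.30 (adjusted p = 1.76e-08), at least 3.79-fold, and blood by 0.68 ± 0.34, which did not pass (adjusted p = 0.136).
Within fluid Mmp9 rose further, to 10.24, 10.66, 10.68 and 9.66 on day 7 against the day 3 values above, 2.90-fold (adjusted p = 0.00802). On day 12 it read 11.29, 10.07 and 10.63 and on day 18 9.71, 9.82 and 10.30. Fluid on day 12 was 4.98-fold above ankle (adjusted p = 1.91e-06) and 3.46-fold above blood (adjusted p = 2.11e-04). On day 7 fluid was 1.99-fold above ankle (adjusted p = 0.00681) with overlapping arrays, and with the beta-actin ratio added to the model this call was lost (0.86, adjusted p = 0.0659, range 0.00134 to 0.0659 over the settings other than left-out arrays).

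Mmp8 was higher in fluid than in ankle, and in the main fit no difference between fluid and blood passed. On day 7 it read 8.04, 7.83, 8.23 and 7.64 in fluid, against 5.49 to 6.33 in ankle and 8.21, 7.22 and 6.80 in blood. Fluid arrays lay above all ankle arrays and overlapped those of blood. The excess of fluid over ankle was 2.04 ± 0.23 on day 7 (adjusted p = 2.23e-07), at least 2.12-fold, and 1.34 ± 0.27 on day 3, 1.49 ± 0.27 on day 12 and 1.14 ± 0.27 on day 18. Fluid minus blood ran from -0.44 ± 0.39 on day 12 to 0.53 ± 0.37 on day 7 and passed on no day (adjusted p = 0.307 to 0.614). On day 7 it was 0.75 and did pass once the beta-actin ratio was in the model (adjusted p = 0.0426). With the beta-actin ratio added to the model the excess of fluid over ankle on days 3, 12 and 18 did not pass (0.62, 0.80 and 0.75, adjusted p = 0.216, 0.0955 and 0.0569). Over all settings other than left-out arrays the highest adjusted p at these days came with values floored at background, 0.544, 0.165 and 0.352. The beta-actin ratio lay between 1.59 and 3.61 in fluid and between 2.73 and 4.25 in ankle.
The summed neutrophil markers, with medians of 8689 to 10205 in fluid, 801 to 3387 in ankle and 4690 to 7998 in blood, were higher in fluid than in ankle, as Mmp8 and Mmp9 were. Of the 7 markers, S100a8, S100a9 and Csf3r passed as higher in fluid on all 4 days, and Ltf, Ngp and Camp did not pass on days 3, 7 and 12 and were lower in fluid on day 18 (-0.98, -1.62 and -1.79). The macrophage sum was higher in fluid as well, with medians of 4116 to 6354 in fluid, 1267 to 1937 in ankle and 650.1 to 766 in blood, and 5 of its 6 markers passed as higher in fluid than in ankle on each day. The part of these cells in the differences of Mmp8 and Mmp9 was not tested.

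Mmp3 showed the opposite arrangement. On day 3 it read 5.61, 5.90 and 5.29 in fluid, against 9.61, 8.35 and 9.03 in ankle and 4.49, 4.85 and 4.44 in blood. All fluid arrays were under background at that day, when ankle was already raised. Fluid minus ankle was -3.40 ± 0.35 (adjusted p = 2.10e-08), at least 4.43-fold lower.
By day 7 Mmp3 in fluid read 8.60, 9.37, 8.39 and 9.28, by day 12 9.81, 8.55 and 9.63 and by day 18 9.70, 8.55 and 9.16, all above background and above all day 3 arrays. The rise within fluid from day 3 was 3.32 ± 0.34 on day 7 (adjusted p = 4.56e-05). Fluid remained 3.51-fold under ankle on day 7, 2.91-fold on day 12 and 3.68-fold on day 18 (adjusted p = 6.64e-05, 0.00252 and 4.00e-04), with no overlap of arrays on any of these days.

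**Figure D4:**
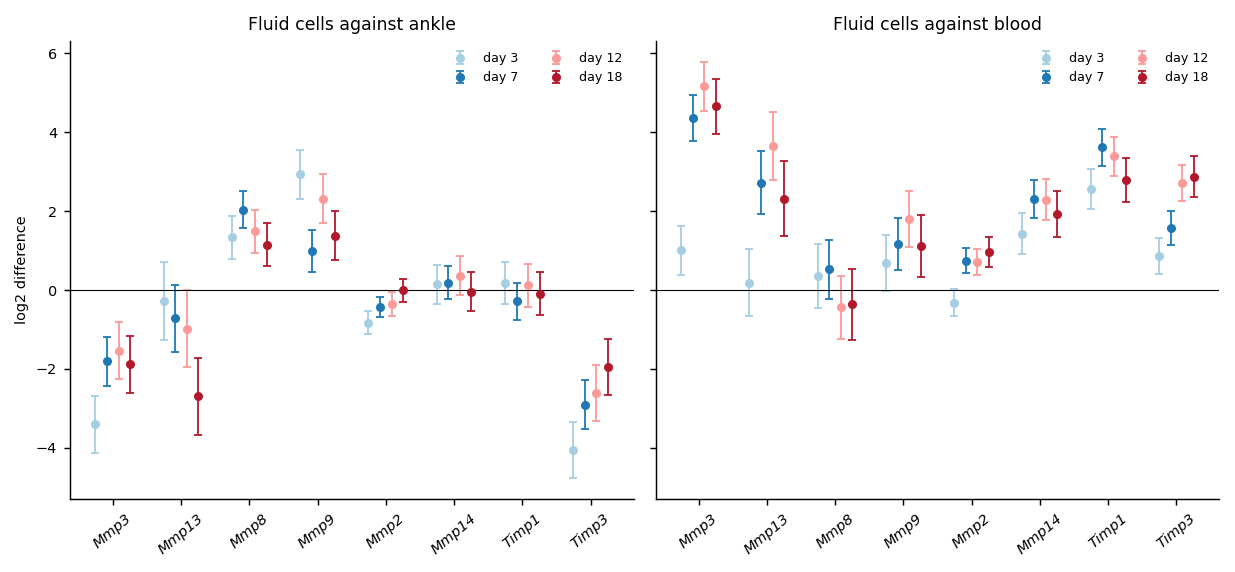
Log2 difference of fluid cells from ankle (left) and from blood (right) at the same day, with 95% confidence intervals from limma, for the 8 genes with a call between tissues. On the left Mmp8 and Mmp9 lie above 0 and Mmp3 and Timp3 under 0 on all 4 days, while Mmp14 and Timp1 lie on both sides of 0.

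The other genes that rose within fluid were Mmp2, Mmp9 and Mmp13 on day 7, where 4 of the 10 genes and 2.56% of all genes passed against day 3 (2.17% as higher). On day 12, 5 of the 10 passed, with Timp3 added, and 2.70% of all genes (2.42% as higher). On day 18, 3 passed (Mmp2, Mmp3 and Timp3), and 3.19% of all genes (2.28% as higher). Mmp13 in fluid read 4.27, 4.19 and 4.17 on day 3, 5.82, 7.303, 5.42 and 7.57 on day 7, 8.19, 6.19 and 7.80 on day 12 and 6.06, 5.64 and 6.53 on day 18, so that 4 of these 13 arrays exceeded background. Its day 7 rise of 2.32 ± 0.50 (adjusted p = 0.0169) was lost without any 1 of the day 3 arrays or day 7 replicate 4 (adjusted p = 0.0538 to 0.0677, range 0.00600 to 0.0677). It was also lost without the arrays of other preparation (2.18, adjusted p = 0.232), which are those the labels describe as washed out of dissected ankles or otherwise collected.
On day 18 Mmp13 in fluid differed from ankle by -2.69 ± 0.48 (adjusted p = 2.22e-04), at least 3.79-fold lower. Mmp2 rose within fluid by 0.87 ± 0.14 on day 7 and 1.25 ± 0.15 on day 18 (adjusted p = 0.00216 and 1.63e-04), all of it under the background level. Its second probe set gave -0.07 ± 0.27 and -0.03 ± 0.28 on these days, and with the mean of both probe sets the calls were lost (0.40 and 0.61, adjusted p = 0.385 and 0.0879). The second probe set of Mmp9 also rose within fluid, by 1.70 ± 0.25 on day 7 and 1.62 ± 0.27 on day 18, and on day 18 the main one gave 1.17 ± 0.32, which did not pass (adjusted p = 0.0594).

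Timp3 in fluid read 5.70, 5.32 and 5.98 on day 3, 6.17, 6.79, 5.92 and 5.96 on day 7, 6.83, 7.15 and 7.78 on day 12 and 7.53, 7.76 and 7.22 on day 18. It exceeded background in 2 of the 3 arrays of day 12 and all 3 of day 18, and lay above all day 3 arrays on both days. The rise over day 3 was 1.59 ± 0.27 on day 12 (adjusted p = 0.00267) and 1.84 ± 0.27 on day 18 (adjusted p = 8.30e-04). As day 3 lay under background, both calls were lost with values floored there (0.41 and 0.65, adjusted p = 0.496 and 0.152). Timp3 in fluid was at least 7.31-fold under ankle on day 3 and at least 4.81-fold on day 7, and 6.13-fold under it on day 12 and 3.85-fold on day 18 (adjusted p = 7.19e-10, 4.47e-08, 2.86e-06 and 2.31e-04).

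Markers of fibroblasts moved with these rises in fluid. The summed intensity of the 9 measured of 10 fibroblast markers had a median of 3143 (range 2408 to 4503) in fluid on day 3, 13329 (8944 to 16501) on day 7, 15411 on day 12 and 14542 on day 18, against medians of 21518 to 25775 in ankle and 1153 to 1260 in blood. Of these 9, 5 passed as higher on day 7, among them the collagen genes Col1a2 (2.55 ± 0.26, adjusted p = 4.63e-05) and Col3a1 (2.36 ± 0.29) and the growth factor receptor Pdgfra (2.14 ± 0.31). The day 7 fibroblast sum did not overlap with that of day 3. The osteoclast sum, carried by Ctsk and Acp5 while Calcr and Itgb3 stayed under background, had a median of 3044 in fluid on day 7 and 777 on day 3. The share of Mmp3, Mmp13, Mmp2 and Timp3 that came with these cells was not tested.

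No difference between fluid and ankle passed for Timp1 or Mmp14. Timp1 in fluid read 12.104, 11.63 and 11.37 on day 3, 13.04, 12.36, 12.07 and 12.29 on day 7, 12.17, 12.56 and 12.42 on day 12 and 12.14, 11.89 and 12.15 on day 18, and overlapped with ankle on each day. Fluid minus ankle ran from -0.28 ± 0.23 on day 7 to 0.18 ± 0.26 on day 3 (adjusted p = 0.450 to 0.949). For Mmp14 it ran from -0.04 ± 0.24 on day 18 to 0.36 ± 0.24 on day 12 (adjusted p = 0.413 to 0.978). The widest 95% intervals, to 0.85 for Mmp14 and to -0.75 for Timp1, allow differences under 2-fold.
On day 3, fluid held Timp1 well above background, while Mmp3 there was under it.

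Fluid differed from blood in 4 of the 10 genes on day 3 (Mmp3, Mmp14, Timp1 and Timp3) and in 7 on each of days 7, 12 and 18 (with Mmp2, Mmp9 and Mmp13 added), and all of these were higher in fluid. Of all genes, 30.5% differed in either direction on day 3, 29.5% on day 7, 32.4% on day 12 and 18.9% at day 18. The day 3 count of the 10 genes lay near that share, which holds both directions, whereas the genes counted were all higher. The shares of higher genes alone are not given here. Timp1 was higher in fluid on day 7 by 3.62 ± 0.23 (adjusted p = 1.02e-12) and Mmp14 at least 4.19-fold (adjusted p = 1.53e-08), with no overlap of arrays. The call of Mmp9 on day 18 (1.12 ± 0.39, adjusted p = 0.0427) was lost without any of the 3 fluid arrays or blood replicate 1 (adjusted p = 0.0526 to 0.413, range 0.0497 to 0.413). The calls of Mmp2 rest on 1 of its 2 probe sets and were lost on each day with their mean (adjusted p = 0.134, 0.917 and 0.337), and with values floored at background those of Timp3 on days 3 and 7, Mmp13 on days 7 and 18 and Mmp9 on day 18 were lost (adjusted p = 0.0587 to 1). That of Mmp3 on day 3, with both means under background, was lost without the arrays of other preparation (0.92, adjusted p = 0.0932) and without fluid replicate 2 or blood replicate 3 (adjusted p = 0.0737 and 0.0568, range 0.0134 to 0.0737).

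Before serum, on day 0, ankle and blood differed in 7 of the 10 genes, and 42.2% of all genes differed (22.4% higher in ankle, 19.8% lower). Timp3 stood at 8.87, 10.55, 9.75 and 9.53 in ankle, against 4.70, 4.72 and 4.59 in blood, a difference of 5.01 ± 0.28 (adjusted p = 3.75e-15). Mmp9 read 5.65, 5.26, 5.78 and 5.50 in ankle, against 8.88, 7.998 and 9.05 in blood, at least 3.47-fold lower (adjusted p = 7.32e-10). Mmp2, Mmp3, Mmp14 and Timp1 were higher in ankle as well, and Mmp8 was lower, each with no overlap of arrays. Mmp2 lay under background in both tissues. With values floored at background the calls of Mmp3 and Mmp8 were lost (0.24 and -0.47, adjusted p = 0.401 and 0.115).

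In blood 0 of the 10 genes passed the test after serum. Of all genes 0% passed on any day by limma, with an unadjusted p under 0.05 for 2 of the 10 on day 1, 3 on day 3, 0 on days 7 and 12 and 2 on day 18, and for 589, 1702, 168, 513 and 1693 of all genes. Mmp9 in blood read 8.88, 7.998 and 9.05 on day 0, 8.39, 7.49 and 8.38 on day 3, 9.50, 9.10 and 8.84 on day 7 and 8.48 and 9.18 on day 18. These ranges overlapped, while in ankle the day 7 arrays had left those of day 0. With array weights in the fit, 8 of the 10 genes passed in blood on day 3, 1 on day 12 and 3 on day 18. Mmp9 passed there on day 3 as lower by 0.90 (adjusted p = 0.0205). Of all genes, array weights called 3948 on day 3 and 2238 on day 12, and the alternatives called up to 2333 on day 18. Without blood day 3 replicate 1, 2 of the 10 genes and 1101 of all genes passed on day 3. Mmp3, Mmp13 and Timp3 stayed under background in all 17 blood arrays, at no more than 4.85, 4.40 and 5.17.

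Whether ankle responded more than blood was tested by the interaction of tissue and day, for days 7 and 18. Of the 10 genes, 4 passed at each day, Mmp3, Mmp9, Mmp13 and Timp1, all larger in ankle, while 2.28% of all genes passed on day 7 and 1.35% on day 18 (1.07% and 0.545% as larger in ankle). For Mmp9 the change on day 7 was 3.77 ± 0.23 in ankle and 0.50 ± 0.34 in blood, a difference of 3.27 ± 0.42 (adjusted p = 1.45e-05). For Timp1 on day 18 it was 1.96 ± 0.24 in ankle and 0.61 ± 0.25 in blood, and the difference of 1.36 ± 0.36 lay near the threshold (adjusted p = 0.0495) and was lost in 10 of the 12 fits that left out 1 array (0.0405 to 0.208). With values floored at background, the differences of Mmp13 on day 7 (0.40, adjusted p = 0.762) and of Mmp9 on day 18 (1.53, adjusted p = 0.0976) were lost as well.

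Other genes of the protease network were counted in lists. Of 6 other measured MMP genes (Mmp7, Mmp10, Mmp11, Mmp16, Mmp17 and Mmp24), 0 passed in ankle on any day against day 0, with an unadjusted p under 0.05 for 0 as well. Their group means reached at most 5.81, under background, so that these counts cannot show whether they changed. Mmp10, a stromelysin that lies between Mmp3 and Mmp8 on chromosome 9, was among them.
Of 9 measured ADAM and ADAMTS proteases, membrane and secreted metalloproteases of related fold, 1 passed as higher on days 7, 12 and 18, against 3.09%, 1.87% and 1.13% of all genes. This was Adam8, a sheddase of leukocytes, which rose by 1.28 ± 0.15 at ankle day 7 (adjusted p = 4.55e-05). It was also 10.6-fold higher in fluid than in ankle on day 3 (adjusted p = 9.18e-11) and 3.19-fold higher on day 18 (adjusted p = 3.84e-05).

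Of 14 measured genes for activators of MMP precursors, 1 was higher and 1 lower at ankle day 7, beside 6.73% of all genes that passed there. Pcsk5, a proprotein convertase, averaged 7.86 on day 7 and 6.35 on day 0 (1.50 ± 0.18, adjusted p = 5.60e-05), and Pcsk6, a related convertase, averaged 5.94 on day 7 and 6.64 on day 0, under background (adjusted p = 0.00428). Plaur, the urokinase receptor that focuses plasmin formation at the cell surface, was higher in fluid than in ankle on all 4 days, at least 3.24-fold on day 3 (adjusted p = 6.71e-07). Cma1, the mast cell chymase, was lower in fluid on day 3, at least 2.57-fold (adjusted p = 6.45e-05).
Of 3 measured other inhibitors, 1 was higher at ankle days 7, 12 and 18, set against the same shares of all genes. It was Tfpi2, an inhibitor of plasmin and of MMPs, which averaged 5.85 on day 7 and 4.45 on day 0 and so stayed under background (1.41 ± 0.20, adjusted p = 2.06e-04). Reck, a membrane-anchored inhibitor, was lower in fluid than in ankle on days 3, 7 and 12, at least 1.59-fold on day 3 (adjusted p = 7.93e-04).

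Of 15 measured inducers of MMP genes, cytokines and AP-1, ETS and related factors, 2 were higher in ankle on days 7 and 12 and 1 on day 18 (3.09%, 1.87% and 1.13% of all genes), and none passed on day 3 (0.182%). Il1b, interleukin-1 beta, a classical inducer of Mmp3 and Mmp13, averaged 7.12 at ankle day 18 and 5.10 on day 0 (2.02 ± 0.28, adjusted p = 3.17e-04). In fluid it averaged 10.26 on day 3 against 5.46 in ankle, at least 10.7-fold higher (adjusted p = 5.66e-10).
In fluid against ankle, 8 of the 15 were higher on day 3, 6 on day 7, 5 on day 12 and 5 at day 18, and none lower, against 12.4%, 9.78%, 7.44% and 5.33% of all genes higher in fluid. Besides Il1b these included Tnf, which was at least 1.37-fold higher on day 3 (adjusted p = 2.08e-06), Ets2, at least 3.88-fold (adjusted p = 4.91e-06), and Jun, a subunit of AP-1, at least 1.85-fold (adjusted p = 2.57e-04). On day 3 these inducers were higher in fluid while Mmp3 was higher in ankle.

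The genes whose pattern over the 16 group means was most like that of each member were found by Pearson correlation among 2393 genes with signal and a range of at least 1 log2 unit. Many of the groups share a tissue, and the values describe these means only. Mmp3 was most like Vcam1 (r = 0.980), an adhesion molecule of activated endothelium and lining fibroblasts, and Kif22 (0.975). Mmp13 was most like Crabp2 (0.961) and Tnc (0.952), which encodes tenascin C. Mmp9 was most like Mpeg1 (0.911), a macrophage gene, and S100a9 (0.910), a neutrophil calcium-binding protein.
Mmp8 was most like Cited2 and Zfp36 (both 0.949). Mmp14 and Timp1 shared Nt5dc2 as their closest gene (0.989 and 0.981), followed by Adam9 (0.980) for Mmp14 and the chemokine gene Cxcl1 (0.978) for Timp1. Timp3 was most like Acta2 (0.993), the smooth muscle actin, and Serping1 (0.991), the inhibitor of complement C1. Of the members at background, Mmp2 was most like Gstt1 (0.963) and Hoxd8 (0.9495), Timp2 like Chrnb2 (0.889) and Zhx1 (0.887), and Mmp12 like F11r (0.784) and Cpd (0.760), and these values rest on signal under the background level.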

How the data were processed

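RNA of 49 samples was hybridised to 1-colour Affymetrix arrays. The authors deposited linear intensity values of 12488 probe sets, normalized by RMA (version unstated) per the submitters' processing notes. All 10833 probe sets with 1 symbol were kept, of 8251 genes, each gene by its brightest probe set, and 396 with several symbols were left out. Names were checked and promoters read in RefSeq tables of GRCm38.p6.

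The intensities were taken to log2 (computed here from the deposited values) and modelled by limma (version 3.58.1, under R 4.3.3) with trended variances, ankle, fluid and blood apart and both tissues together in comparisons between them. P-values were adjusted over all 8251 genes in each comparison at a threshold of 0.05. The fit was tested on simulated data. A fold is given where both means exceed the background level, and at least N-fold is the brighter mean over that of the dimmer group, each of whose arrays was first raised to that level where it lay under it.

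The genes, lists and tests were chosen with earlier results of these data known. All members are named. Of each protease network list at most 4 genes were named, those called in ankle against day 0 or in fluid against ankle with the lowest p, and 2 similar genes per member. Alternatives were another normalization or centring, a filter, a floor, probe set means, robust moderation, array weights, all arrays together, a replicate block, the beta-actin ratio, and left-out arrays.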

Additional observations from a re-analysis of the deposited data

Results flagged for a closer look

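Mmp14 in ankle day 7 replicate 3 read 8.30, while the other 3 arrays of that group lay between 8.84 and 8.93, and its gap made up 0.860 of the range of the group. It was the only array to stand apart in this way among 30 combinations of gene and group with 4 arrays, where chance gives about 1 in 20.

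The responses of ankle and blood to serum differed, by the interaction in limma, for 4 genes at both days tested. At day 7 the ankle response exceeded that of blood by 3.38 for Mmp3, 3.27 for Mmp9, 3.18 for Mmp13 and 2.38 for Timp1 on the log2 scale. At day 18 it did so by 3.75 for Mmp3, 2.83 for Mmp9, 4.75 for Mmp13 and 1.36 for Timp1. Mmp3 and Mmp13 lay under background in every blood array. With values floored at background Mmp13 at day 7 and Mmp9 at day 18 did not pass (adjusted p = 0.762 and 0.0976), and Timp1 at day 18 was lost in 10 of the 12 fits that left out 1 array.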

How the results depend on the processing

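Of 91 differences past the threshold among the 10 genes, 81 passed with any 1 array left out, and no called difference reversed. Under every other alternative in which the gene was tested, 58 passed. Mmp2 and Mmp13 were not tested with the dimmest genes left out, nor Mmp2 with the floor at background. The replicate numbers were not taken to pair the samples, since the labels give no shared source. Not every same-numbered pair of deviations correlated above 0.1 (26 of 41 in ankle, 7 of 18 in fluid and 25 of 40 in blood). This rule cannot exclude a weaker likeness by number. The median r of same-numbered deviations was 0.199 in ankle, -0.061 in fluid and 0.194 in blood, against -0.113, -0.060 and -0.132 for other-numbered ones. In ankle and blood, same-numbered arrays were thus more alike than others, which the main fits do not model. With the number as a replicate block, Mmp13 in fluid at day 7 against day 3 was 1.97 and lost its call (adjusted p = 0.0966) and Mmp9 at day 18 gained one (1.17, adjusted p = 0.0352). Counts of members moved with the floor at background, to 2 of 4 in ankle day 7 against day 3, 2 of 4, 2 of 5 and 1 of 3 in fluid at days 7, 12 and 18, 3 of 5 in fluid against ankle at day 3, 2 of 4, 4 of 7 and 4 of 7 in fluid against blood at days 3, 7 and 18, and 4 of 7 in ankle against blood at day 0. With the dimmest genes left out, Mmp2 and Mmp13 among them, the counts were 2 and 3 in fluid at days 7 and 12. Array weights gave 1 in ankle day 18 against day 7, 6 in fluid at day 18, 8, 1 and 3 in blood at days 3, 12 and 18 and 7 in fluid against blood at day 3, and all 49 arrays together gave 5 in fluid at day 18. In ankle at day 3 the count was 1 with probe set means and 1 with the beta-actin ratio, which gave 3 in fluid against ankle at day 7. Over left-out arrays it was 1 to 2 in ankle at day 3, 2 to 4 in ankle day 7 against day 3 and 0 to 2 in blood at day 3. Without the liver-containing arrays Mmp2 peaked at day 18, not 7. Counts over all genes moved more: 6 to 526 for 19 in ankle at day 3, 250 to 1274 for 555 at day 7, 95 to 2592 for 267 at day 12 and 56 to 1540 for 166 at day 18. They were 89 to 485 for 211, 99 to 1638 for 223 and 114 to 2752 for 263 in fluid, and up to 3948, 2238 and 2333 for 0 in blood at days 3, 12 and 18. The cause was not tested. The number of arrays and signal near background limit the precision, most for Mmp2, Mmp12, Timp2 and early Mmp13.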
